A study of Mus musculus with 6 samples.

Results

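Potassium channel genes of the mouse dorsal root ganglion (DRG) were examined in RNA-seq libraries from ganglia that overexpressed the nerve injury-specific long noncoding RNA *NIS*. The members were all genes whose symbol starts with *Kcn*, followed by the letters of a subfamily and a number, so that antisense transcripts such as *Kcnq1ot1* were left out. There were 92 members among the 48440 genes of the count table, and 81 of them passed the filter on low counts, as did 18593 genes in all. The symbol marks 77 pore-forming or silent subunits and 15 accessory subunits, and all 92 had an entry in the GENCODE M21 annotation.

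Total RNA came from L3/4 DRGs of wild-type (WT) male mice that had received a unilateral microinjection of adeno-associated virus. The virus was AAV5-Gfp in the control group (here *Gfp*, 3 libraries) and a mixture carrying both variants, AAV5-NIS V1 and V2, in the other group (here *NIS*, 3 libraries). No nerve was injured in either group, and the comparison asks which transcripts differ when *NIS* is raised in the ganglion. The submitters give the interval after microinjection as 5 weeks in one sentence and as 4 weeks in another. The age of the mice, the number of mice per library, the promoter of the vectors and the share of neurons that took up the virus are not given in the sources used here, and the overexpressed transcript itself was not analysed here. Nothing states that the libraries came from separate animals, so that the p-values measure the spread between libraries, which may be technical.

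Potassium channels let potassium leave the cell and so pull the membrane toward its resting potential. In sensory neurons they set how readily an action potential starts, how quickly it ends and how often it repeats, and the loss of several of them after nerve injury is a textbook feature of neuropathic pain. Voltage-gated (Kv) channels open on depolarization, calcium- and sodium-activated channels open when these ions enter, inward rectifiers hold the resting potential, and the 2-pore-domain channels leak at rest. Accessory subunits form no pore and change the gating or the traffic of the others.

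What the pore-forming members share is the selectivity filter, the short loop that lets potassium through and keeps sodium out. Its codons were found in the longest coding transcript of 77 of the 92 members, that is in every pore-forming or silent subunit and in 0 of the 15 accessory subunits. All 14 2-pore-domain members held 2 such stretches, and 346 of 21794 coding genes (1.59%) held at least 1. The stretches below are from members of different branches with the lowest and highest fold changes or the highest levels, read from GRCm38 5′ to 3′ on the strand of the gene, each 48 bases of coding sequence with the codons of the filter in capitals.
Kcnj6, chr16:94832765-94832812, minus strand, exon 3 of 4: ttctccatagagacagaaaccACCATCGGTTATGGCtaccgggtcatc
Kcnj16, chr11:111024883-111024930, plus strand, exon 3 of 3: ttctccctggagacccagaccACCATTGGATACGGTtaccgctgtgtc
Kcnj2, chr11:111072186-111072233, plus strand, exon 2 of 2: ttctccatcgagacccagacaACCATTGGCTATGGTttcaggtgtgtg
Kcnj15, chr16:95295959-95296006, plus strand, exon 4 of 4: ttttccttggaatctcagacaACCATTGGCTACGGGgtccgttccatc
Kcnb2, chr1:15710025-15710072, plus strand, exon 3 of 3: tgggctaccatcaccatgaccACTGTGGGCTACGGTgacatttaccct
Kcnc1, chr7:46427952-46427999, plus strand, exon 2 of 4: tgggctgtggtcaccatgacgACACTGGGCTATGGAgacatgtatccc
Kcnh7, chr2:62777331-62777378, minus strand, exon 8 of 16: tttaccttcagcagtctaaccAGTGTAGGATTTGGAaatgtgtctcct
Kcnma1, chr14:23528401-23528448, minus strand, exon 8 of 31: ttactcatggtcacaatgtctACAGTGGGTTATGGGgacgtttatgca
Kcnn4, chr7:24379177-24379224, plus strand, exon 4 of 9: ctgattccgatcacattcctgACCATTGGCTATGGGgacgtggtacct
Kcnk6, chr7:29225524-29225571, minus strand, exon 2 of 3 (the second of its 2 stretches): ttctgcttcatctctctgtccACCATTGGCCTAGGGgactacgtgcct

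The 4 inward rectifiers printed here shared 30 to 39 of the 48 bases in pairs, and they moved in opposite directions, *Kcnj6* and *Kcnj16* downward and *Kcnj2* and *Kcnj15* upward. *Kcnb2* and *Kcnc1* shared 36 of the 48 bases. No base pattern of this stretch was compared with the fold changes.

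Total counts ranged from 32618252 to 34764282 with *Gfp* and from 32025612 to 34228594 with *NIS*. Levels are given as CPM, the count relative to the library's total after scaling by the trimmed mean of M values (TMM), and fold changes as log2 of *NIS* over *Gfp* with the standard error (SE). A gene was called when its p from edgeR's quasi-likelihood test, adjusted by Benjamini-Hochberg over all 18593 genes, was under 0.05. The ganglion's own cell types were all represented, with all 16 pan-neuronal, all 11 satellite glia and all 11 Schwann cell markers among the tested genes. Skeletal muscle markers, which a clean ganglion should lack, summed to 91.7, 1142 and 486 CPM in *Gfp* 1 to 3 and to 359, 156 and 38.9 CPM in *NIS* 1 to 3, so that the groups overlapped. None of the 9 was called by edgeR or DESeq2, and 0 had an unadjusted p under 0.05.

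Most potassium channel genes had lower levels with *NIS* under TMM scaling. Of the 81 tested members, 24 (29.6%) were called lower and 4 (4.94%) were called higher, against 5.27% and 10.1% of all tested genes. In 52 members (64.2%) every *NIS* library lay below every *Gfp* library, and in 7 (8.64%) every *NIS* library lay above, against 22.0% and 23.4% of all tested genes. All 28 called members were separated in this way, which their choice by p in the same libraries makes likely. The log2 fold change was negative in 68 of the 81, and its median over them was -0.35, against -0.0003 over all tested genes, but it became 0.065 when libraries were scaled to pan-neuronal genes. At an unadjusted p under 0.05, 44 members were lower and 5 were higher, and the share of all tested genes at this threshold is not given here.

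Neuronal markers were lower along with the members. All 16 pan-neuronal markers had negative log2 fold changes (median -0.43), 4 of them called (*Map2*, *Pou4f1*, *Rbfox3* and *Syt1*), and their summed level was 10865 to 11825 CPM with *Gfp* and 6998 to 10160 CPM with *NIS*. Fewer neurons, less RNA per neuron and more RNA from other cells cannot be told apart in bulk tissue. Scaling the libraries to these markers raised the median log2 fold change of all genes by 0.44. On that scale 1 of the 81 members was called lower, *Kcnip1*, against 17 of all 18593 genes (0.0914%), and the same 4 members were called higher as before (*Kcnk6*, *Kcnj15*, *Kcnj2* and *Kcnn4*), against 2234 of all genes (12.0%), so that lower calls were lost over the whole table. Relative to neuronal genes, 30 of the 81 tested members had negative values, against 2028 of all 18593 genes. The median was 0.065 over the members and 0.44 over all genes. The 24 members called lower, which were chosen for low values in the same libraries, had a median of -0.28 (range -0.74 to 0.16). The calls also rested on all control libraries, for the members as for the whole table. Without *Gfp* 2 edgeR called 0 members and, over all genes, 0 lower and 12 higher, and without *Gfp* 3 it called 0 members and, over all genes, 0 lower and 15 higher. At an unadjusted p under 0.05, 41 and 33 members were lower in these fits and 4 were higher in both, again without a share over all genes. Without *Gfp* 1 the calls were 4 members lower and 1 higher (59 and 257 over all genes), and without *NIS* 2 they were 8 lower and 2 higher (150 and 1020 over all genes).

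**Figure D1:**
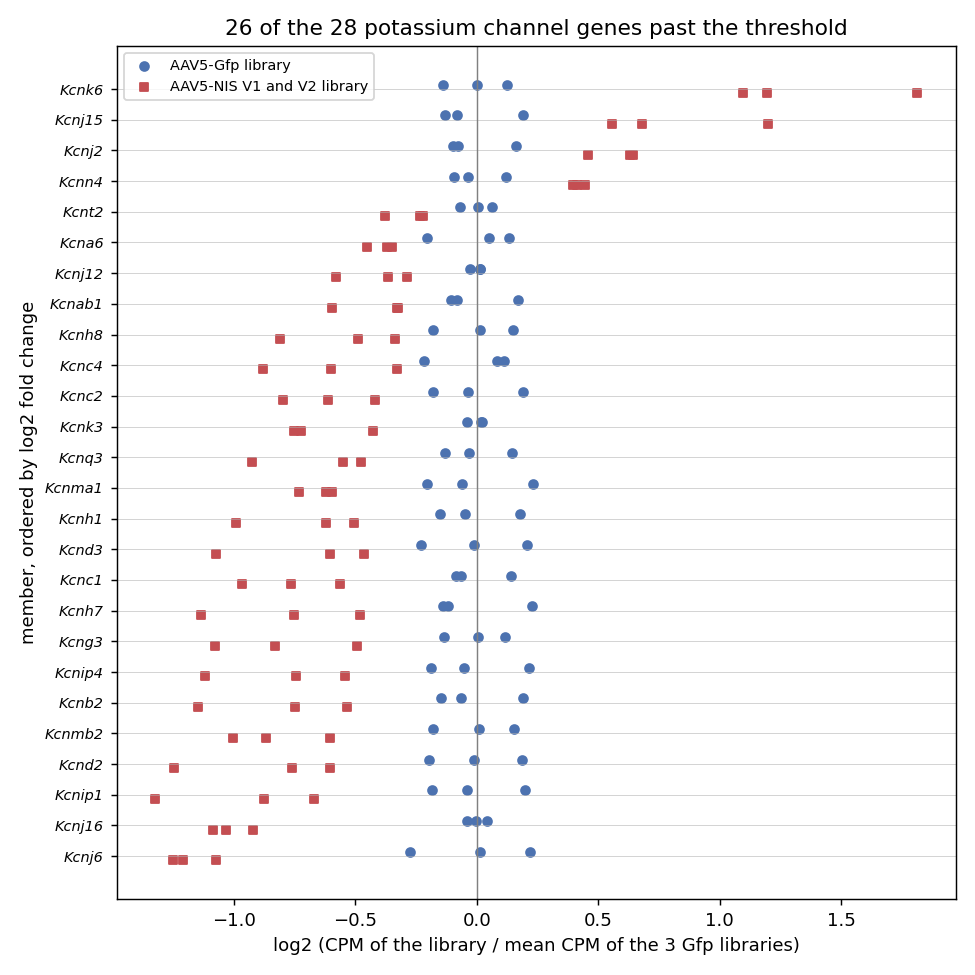
Each point is a library's CPM over the mean of the 3 *Gfp* libraries (log2 axis) for 26 of the 28 called members, with *Gfp* as circles and *NIS* as squares. No square overlaps the circles of its row, which the choice of called members makes likely. Under TMM scaling 22 members lie to the left and 4 to the right. Scaling to pan-neuronal genes leaves 1 call on the left and 4 on the right.

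Among the Kv1 subunits, the low-threshold channels that flank the node of Ranvier and damp repetitive firing, 5 of 8 were tested and 1 was called lower. *Kcna6* measured 98.8, 118 and 125 CPM in the *Gfp* libraries and 83.4, 89.4 and 88.1 CPM in the *NIS* libraries. The groups did not overlap, and the difference was small (log2 fold change -0.39, SE 0.09, adjusted p = 0.036), with a value of 0.054 on the pan-neuronal scale. *Kcna1* and *Kcna2*, the most abundant of this branch per kilobase of exon (41.3 and 36.2 CPM per kb with *Gfp*), were not called. *Kcna1* was at 205, 187 and 200 CPM with *Gfp* and 143, 178 and 184 CPM with *NIS* (log2 fold change -0.23, adjusted p = 0.17). *Kcna2* was at 426, 413 and 454 CPM with *Gfp* and 281, 334 and 376 CPM with *NIS* (log2 fold change -0.38, adjusted p = 0.065). Both were lower in every *NIS* library, *NIS* 1 being the lowest. *Kcna4*, an A-type channel of small neurons, fell just short of the threshold (log2 fold change -0.49, adjusted p = 0.055). *Kcna3*, the Kv1 subunit best known from T lymphocytes, did not pass the filter, and neither did *Kcna7* and *Kcna10*.

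Kv2 channels carry much of the slow delayed rectifier current of sensory neurons. *Kcnb2*, the most abundant pore-forming member per kilobase (49.6 CPM per kb with *Gfp*), had 679, 719 and 859 CPM with *Gfp* and 339, 448 and 519 CPM with *NIS*. The highest *NIS* library was below the lowest *Gfp* library (log2 fold change -0.79, SE 0.17, adjusted p = 0.028). Relative to pan-neuronal genes *Kcnb2* was at -0.38 (adjusted p = 0.053), short of the threshold.

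Kv3 genes encode the fast delayed rectifiers that end short action potentials, and *Kcnc1*, *Kcnc2* and *Kcnc4* were called lower. *Kcnc1* read 30.0, 29.6 and 34.6 CPM with *Gfp* and 16.1, 18.5 and 21.2 CPM with *NIS* (log2 fold change -0.76, SE 0.12, adjusted p = 0.015). *Kcnc2* read 51.6, 57.2 and 66.8 CPM against 33.7, 38.2 and 43.8 CPM (log2 fold change -0.60, adjusted p = 0.026). *Kcnc1* and *Kcnc2* thus kept a gap between the groups, and *Gfp* 3 was the highest library for both. *Kcnc4* had 13.5, 16.7 and 17.0 CPM with *Gfp* and 8.57, 12.6 and 10.4 CPM with *NIS*, and lay closest to the threshold of all called members (log2 fold change -0.58, adjusted p = 0.049).

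Kv4 channels carry the A-type current, which delays firing, and work in complexes with the KChIP proteins encoded by the *Kcnip* genes. *Kcnd2* had 11.6, 13.2 and 15.1 CPM with *Gfp* and 5.59, 7.84 and 8.75 CPM with *NIS* (log2 fold change -0.84, SE 0.18, adjusted p = 0.028). *Kcnd3* had 117, 136 and 159 CPM with *Gfp* and 65.3, 90.4 and 99.7 CPM with *NIS* (log2 fold change -0.69, SE 0.17, adjusted p = 0.039). Both genes were lower in every *NIS* library than in any *Gfp* library. *Kcnd1*, the most abundant Kv4 gene per kilobase (16.7 CPM per kb with *Gfp*), was at -0.35 and was not called (adjusted p = 0.098). On the pan-neuronal scale edgeR called 0 of the 3, with 1 lower at an unadjusted p under 0.05.

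The accessory subunits of the Kv4 channels held the most abundant member of all per kilobase of exon, *Kcnip4*, and the only member called lower on both scales, *Kcnip1*. *Kcnip4* had 173 CPM per kb with *Gfp*, with 551, 605 and 729 CPM in the 3 libraries, and 290, 375 and 432 CPM with *NIS* (log2 fold change -0.78, SE 0.17, adjusted p = 0.028). *Kcnip1* had 162, 178 and 211 CPM with *Gfp* and 73.3, 100.2 and 115 CPM with *NIS*, the lowest value of an accessory subunit (log2 fold change -0.93, SE 0.17, adjusted p = 0.020). It was still lower relative to pan-neuronal genes (log2 fold change -0.52, adjusted p = 0.042). The other two, *Kcnip2* and *Kcnip3*, were at -0.30 and -0.29 and were not called.

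Of the other accessory subunits, *Kcnmb2*, which makes BK channels inactivate, was called lower. Its levels were 35.6, 40.6 and 44.9 CPM with *Gfp* and 20.1, 22.1 and 26.6 CPM with *NIS* (log2 fold change -0.81, SE 0.13, adjusted p = 0.015). *Kcnab1*, a beta subunit of Kv1 channels, was called at a log2 fold change of -0.41 (adjusted p = 0.044), and on the pan-neuronal scale its value was 0.020. *Kcnab2*, the second most abundant member per kilobase (65.5 CPM per kb with *Gfp*), had overlapping groups, 392, 345 and 359 CPM with *Gfp* and 256, 353 and 361 CPM with *NIS* (log2 fold change -0.18, adjusted p = 0.40). In all, 4 of 12 tested accessory subunits (33.3%) and 20 of 69 tested pore-forming or silent subunits (29.0%) were called lower.

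Silent subunits form no channel alone and combine with Kv2 subunits. Of 9 tested, 1 was called lower. *Kcng3* had 14.6, 16.0 and 17.3 CPM with *Gfp* and 7.57, 11.4 and 8.98 CPM with *NIS* (log2 fold change -0.78, SE 0.16, adjusted p = 0.024). The groups did not overlap. *Kcns3*, the most abundant silent subunit per kilobase (13.7 CPM per kb with *Gfp*), was at -0.38 (adjusted p = 0.095). *Kcns1*, a subunit known for its loss after nerve injury and its link to pain, had 24.3, 18.3 and 18.6 CPM with *Gfp* and 15.2, 25.0 and 19.9 CPM with *NIS*, and these ranges overlapped (log2 fold change -0.02, SE 0.19, adjusted p = 0.94).

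In the EAG, ERG and ELK group, whose slow gating shapes firing patterns, 3 of 8 genes were called lower. *Kcnh7*, the most abundant of them (26.4 CPM per kb with *Gfp*), had 366, 370 and 470 CPM with *Gfp* and 183, 238 and 288 CPM with *NIS* (log2 fold change -0.76, SE 0.18, adjusted p = 0.033). *Kcnh1* had 59.6, 63.8 and 74.9 CPM with *Gfp* and 33.3, 43.0 and 46.6 CPM with *NIS* (log2 fold change -0.69, SE 0.14, adjusted p = 0.024). *Kcnh8* had 88.6, 111 and 101 CPM with *Gfp* and 57.2, 71.6 and 79.5 CPM with *NIS* (log2 fold change -0.53, adjusted p = 0.040). All 3 were lowest in *NIS* 1 and highest among *NIS* libraries in *NIS* 3. The other 5 were not called, and their values ran from -0.57 to 0.52.

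Kv7 channels carry the M-current, a brake on repetitive firing. *Kcnq3*, a subunit of these channels, was called lower, with 64.1, 68.6 and 77.7 CPM with *Gfp* and 36.9, 47.9 and 50.4 CPM with *NIS* (log2 fold change -0.64, SE 0.13, adjusted p = 0.024). It was lower in every *NIS* library. *Kcnq1*, the most abundant Kv7 gene per kilobase (40.0 CPM per kb with *Gfp*), was at -0.22 (adjusted p = 0.19). In M21 an exon of *Kcnq1ot1* on the opposite strand overlaps *Kcnq1*, with 4 counts against 30206 for *Kcnq1*. The use of strand in the counting is not given, and whether *Kcnq1* holds reads of *Kcnq1ot1* was not tested. *Kcnq5* lay just outside the threshold (log2 fold change -0.28, adjusted p = 0.051).

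Among the calcium- and sodium-activated channels, 2 of 8 were called lower and 1 higher. *Kcnma1*, the BK channel that repolarizes after large calcium entry, had 143, 158 and 193 CPM with *Gfp* and 99.2, 107 and 109 CPM with *NIS* (log2 fold change -0.65, SE 0.12, adjusted p = 0.018). *Kcnt2*, a sodium-activated channel, had 55.4, 57.8 and 52.7 CPM with *Gfp* and 42.6, 47.1 and 47.4 CPM with *NIS* (log2 fold change -0.28, adjusted p = 0.044). *Kcnt2* had the smallest change of all called members, and on the pan-neuronal scale it was at 0.16. It was called in 6 of 18 alternatives, and not with total counts, without a filter, with limma-voom or with the replicate block. *Kcnt1*, its more abundant relative (13.3 CPM per kb with *Gfp*), was at -0.47 (adjusted p = 0.062). *Kcnn4*, the intermediate-conductance channel known from lymphocytes, macrophages and erythrocytes, went the other way, with 13.1, 11.8 and 11.3 CPM with *Gfp* and 16.4, 15.9 and 16.1 CPM with *NIS* (log2 fold change 0.42, SE 0.09, adjusted p = 0.027).

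The inward rectifiers held calls in both directions, 3 lower and 2 higher of 13 tested. *Kcnj6*, a subunit of the channels that G protein-coupled receptors such as the opioid receptor open, had the lowest log2 fold change of all called members. Its levels were 4.18, 5.11 and 5.90 CPM with *Gfp* and 2.13, 2.40 and 2.19 CPM with *NIS* (log2 fold change -1.18, SE 0.17, adjusted p = 0.014). The other tested subunits of these channels, *Kcnj3* and *Kcnj9*, were at -0.69 (adjusted p = 0.053) and -0.23 (adjusted p = 0.45). *Kcnj16*, which pairs with *Kcnj10* in the satellite glia channel that takes up potassium, had 2.42, 2.48 and 2.56 CPM with *Gfp* and 1.22, 1.17 and 1.31 CPM with *NIS* (log2 fold change -1.01, SE 0.16, adjusted p = 0.015). *Kcnj10* itself, at 62.1, 63.7 and 79.7 CPM with *Gfp* and 52.2, 54.6 and 60.7 CPM with *NIS*, was lower in every *NIS* library and was not called (log2 fold change -0.29, adjusted p = 0.11). *Kcnj12*, a strong rectifier also known from muscle, was called at -0.41 (adjusted p = 0.031), with 22.6, 22.6 and 21.9 CPM with *Gfp* and 15.0, 17.3 and 18.3 CPM with *NIS*; its value was 0.021 on the pan-neuronal scale.

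*Kcnj2*, the classical strong inward rectifier, had 19.8, 16.8 and 16.5 CPM with *Gfp* and 24.3, 27.4 and 27.6 CPM with *NIS* (log2 fold change 0.58, SE 0.10, adjusted p = 0.017). *Kcnj15* had 2.26, 2.83 and 2.34 CPM with *Gfp* and 5.68, 3.97 and 3.64 CPM with *NIS* (log2 fold change 0.84, SE 0.21, adjusted p = 0.039). In both, every *NIS* library was above every *Gfp* library, *NIS* 1 being the highest for *Kcnj15* and the lowest of the *NIS* libraries for *Kcnj2*.

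The 2-pore-domain channels set the resting leak, and 10 of the 12 tested were not called. *Kcnk6*, a member known from macrophages, had the highest fold change of all members. It was at 1.80, 1.96 and 1.63 CPM with *Gfp* and 6.32, 3.85 and 4.11 CPM with *NIS* (log2 fold change 1.40, SE 0.23, adjusted p = 0.016). *Kcnk3*, an acid-sensitive leak channel, was called lower, with 5.58, 5.83 and 5.80 CPM with *Gfp* and 3.40, 4.27 and 3.47 CPM with *NIS* (log2 fold change -0.63, SE 0.14, adjusted p = 0.029). In M21 an exon of *Gm9899* on the opposite strand overlaps *Kcnk3*, with 224 counts against 936 for *Kcnk3* over the 6 libraries, and the use of strand in the counting is not given in the sources used here. *Kcnk1*, the most abundant of the branch (29.7 CPM per kb with *Gfp*), was at -0.50 (adjusted p = 0.074). *Kcnk10* and *Kcnk2*, the mechanosensitive and heat-sensitive channels of nociceptors, lay just outside the threshold at -0.55 (adjusted p = 0.054) and -0.29 (adjusted p = 0.055). *Kcnk18*, a channel linked to migraine and nociceptor excitability, was at -0.28 (adjusted p = 0.35).

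**Figure D2:**
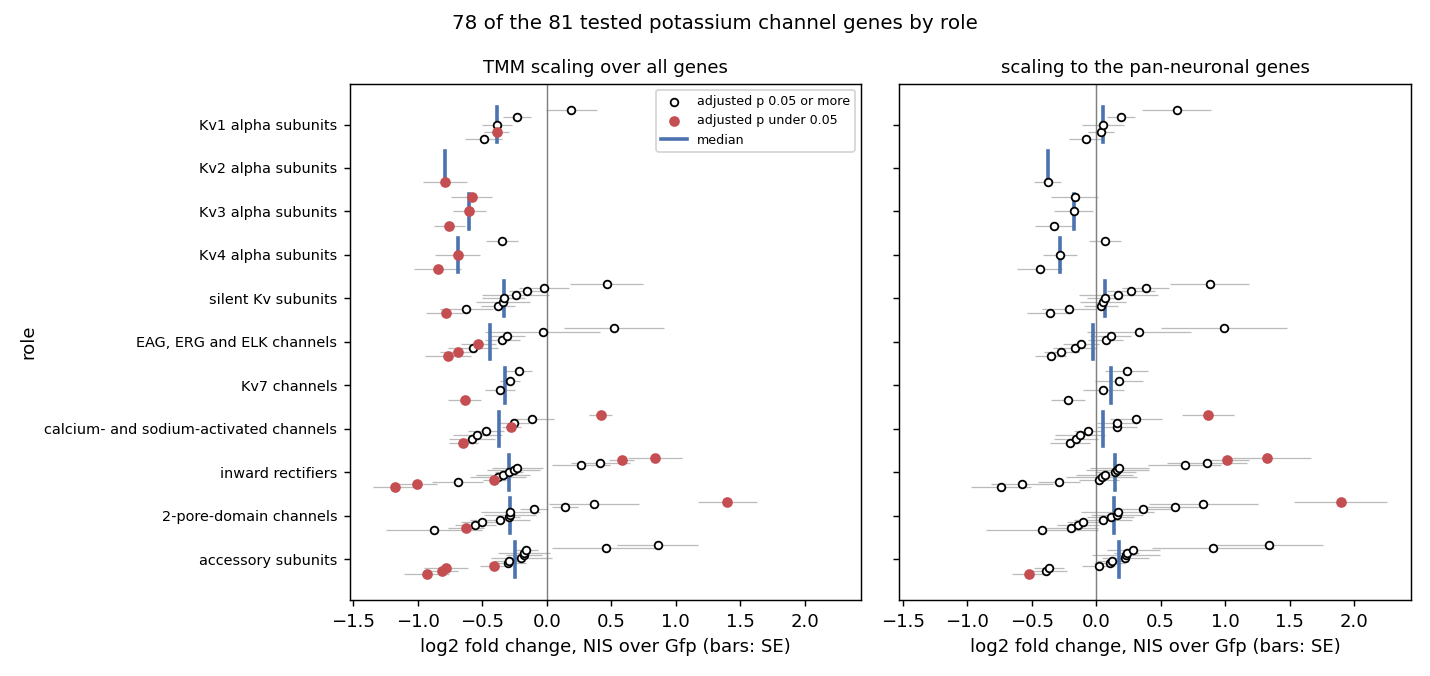
Log2 fold changes of 78 of the 81 tested members by role (points, with SE as bars; vertical lines mark the median of the points in a role), on the left with TMM scaling and on the right with scaling to 16 pan-neuronal genes. Filled points passed the threshold, 26 on the left and 5 on the right, and the median over all 81 goes from -0.35 to 0.065.

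Members described as lost from the ganglion after nerve injury were counted as a list of 10, all tested, among them *Kcna1*, *Kcna2*, *Kcna4* and *Kcns1*. All 10 had negative values (median -0.44), 4 were called lower (*Kcnb2*, *Kcnc4*, *Kcnd3* and *Kcnq3*), and on the pan-neuronal scale the median was -0.032 with 0 called (1 lower at an unadjusted p under 0.05). Of all 81 tested members, 68 had negative values (median -0.35) and 24 (29.6%) were called lower, against 5.27% of all tested genes. DESeq2 called 7 of the 10 lower under its own scaling, against 37 of the 81 members and 1606 of all 18593 genes. General markers of nerve injury stood at a median of 0.085, with *Atf3* (0.78) and *Ecel1* (1.07) called higher and *Cacna2d1* (-0.50) called lower among 12 tested.

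Of 5 members known from leukocytes, 4 were tested, and 2 were called higher, *Kcnk6* and *Kcnn4*; *Kcnk5* (0.14) and *Kcnk13* (-0.10) were not called. Most leukocyte markers were also called higher. In the macrophage list 11 of 13 genes were called higher, and its summed level was 207 to 285 CPM with *Gfp* and 580 to 1565 CPM with *NIS*. In the T and natural killer cell list 14 of 15 tested genes were higher, with sums of 6.98 to 17.1 CPM and 59.8 to 129 CPM, and in the B and plasma cell list 10 of 10 were higher, with sums of 25.6 to 42.9 CPM and 322 to 553 CPM. Of the 4 members called higher, *Kcnk6*, *Kcnj15* and *Kcnn4* were highest in *NIS* 1, as was the macrophage sum. That sum was 1565, 841 and 580 CPM in *NIS* 1 to 3. *Kcnn4* differed little between these libraries (16.4, 15.9 and 16.1 CPM). *Kcnk6* (6.32, 3.85 and 4.11 CPM) and *Kcnn4* were higher in *NIS* 3 than in *NIS* 2, unlike the macrophage sum. *Kcnj2* was lowest in *NIS* 1 among the *NIS* libraries. The part of leukocyte RNA in the result was not tested. *Kcna3*, although known from T lymphocytes, had at most 3 counts in every library.

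Of 4 members known from satellite glia or vessel walls, *Kcnj16* was called lower, and *Kcnj10* (-0.29), *Kcnj8* (-0.38) and *Kcnmb1* (-0.18) were not called. Satellite glia markers summed to 2908 to 3242 CPM with *Gfp* and 2767 to 3191 CPM with *NIS*, and 1 of 11 was called, higher. Vascular markers overlapped as well (390 to 414 CPM and 393 to 446 CPM), with 1 of 11 called in each direction. Of 11 Schwann cell markers edgeR and DESeq2 called 0, with 1 higher at an unadjusted p under 0.05, and of 9 fibroblast markers 3 were called higher (median 0.43).

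The libraries followed 1 order across the members called lower. *NIS* 1 was the lowest *NIS* library in 22 of the 24, and *NIS* 3 the highest in 19, and among the controls *Gfp* 1 was lowest in 20 and *Gfp* 3 highest in 20. The median log2 ratio to the *Gfp* mean over the 81 tested members was -0.61, -0.29 and -0.22 in *NIS* 1 to 3. Over the pan-neuronal markers it was -0.74, -0.26 and -0.22, over the nociceptor markers -0.65, -0.21 and -0.21, and over the large-diameter neuron markers -0.65, -0.25 and -0.24. Of these lists, 1 of 12 nociceptor genes was called lower (5 by DESeq2), and of 11 large-diameter neuron genes 4 were called lower and 1 higher. For the 24 members called lower the ratios were -0.89, -0.61 and -0.52, below those of the pan-neuronal list in each *NIS* library, as the choice of called members implies. Without *NIS* 1 the calls were 30 members lower and 4 higher (1095 and 1862 over all genes), and the median over the members was -0.25.

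**Figure D3:**
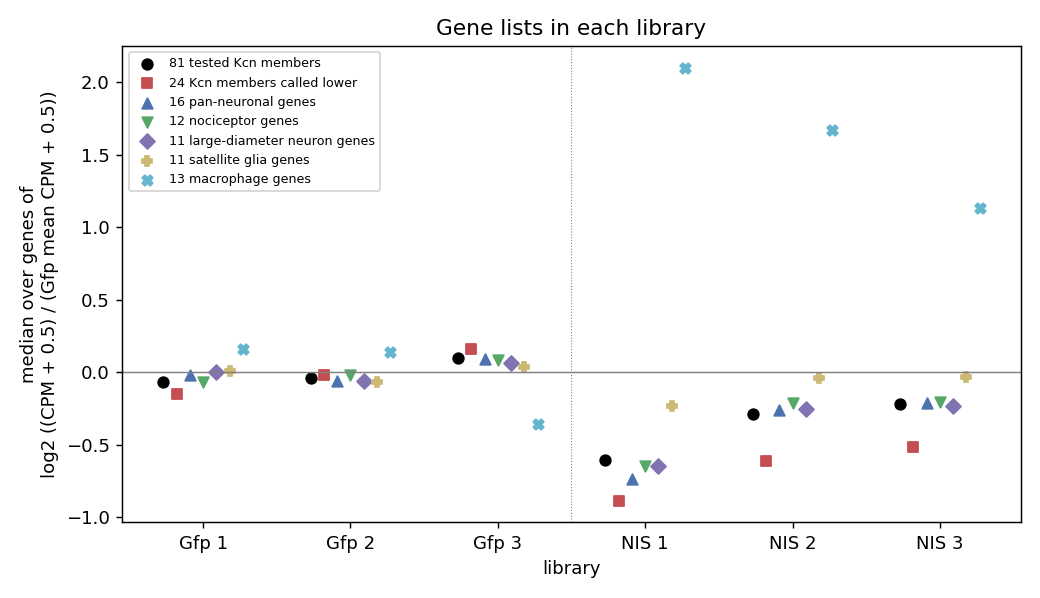
Median log2 ratio of each gene list to its *Gfp* mean (y axis, CPM with an offset of 0.5) in each library (x axis). The *NIS* libraries lie at -0.61, -0.29 and -0.22 for the tested *Kcn* members and at -0.74, -0.26 and -0.22 for the pan-neuronal markers, and the macrophage list lies at 1.13 to 2.10. On the pan-neuronal scale the fitted median of the members is 0.065.

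Genes of proteins that work with potassium channels were mostly lower as well under TMM scaling, with negative values in 27 of 29 (median -0.39, and 0.020 on the pan-neuronal scale). Of all 18593 tested genes, 9305 had negative values. By edgeR, 10 partners were called lower and 0 higher, against 5.27% and 10.1% of all tested genes. At an unadjusted p under 0.05, 18 were lower and 1 was higher, without a share over all genes. DESeq2 called 14 lower and 1 higher, against 1606 and 2405 of all genes. On the pan-neuronal scale 0 were called, with 3 in each direction at an unadjusted p under 0.05. The called partners include *Dpp6* (-0.75) and *Dpp10* (-0.73), which complete the Kv4 complex, and *Amigo1* (-0.50), the partner of Kv2. *Cntnap1* (-0.43) and *Cntnap2* (-0.72) anchor channels beside the node of Ranvier, *Ank3* (-0.60) and *Dlg2* (-0.49) are scaffolds, *Lgi2* (-0.41) is a secreted protein, *Lingo1* (-0.59) binds BK channels, and *Abcc8* (-0.54) is the sulfonylurea receptor. *Cntnap2* is also in the large-diameter neuron list.

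Of 17 potassium pumps and transporters, 3 were called lower, against 5.27% of all tested genes. Their median was -0.17, or 0.27 on the pan-neuronal scale. *Atp1b1*, a beta subunit of the sodium pump, was at -0.48, and *Slc24a2*, a potassium-dependent sodium-calcium exchanger, was at -0.58.

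The members called lower were mostly long genes. Their median genomic span was 259 kb, against 21.6 kb for the 53 members that were not called, 13.5 kb for the 4 called higher and 23.3 kb for all tested genes with an M21 span. Of the 23 members over 100 kb, 15 were called lower (65.2%), and of all 2602 such genes 22.4% were. In the class over 300 kb it was 10 of 13 members against 46.6% of all genes, and the medians were -0.65 and -0.39. In the class up to 10 kb edgeR called 0 of 15 members lower (1 at an unadjusted p under 0.05, and 1 called by DESeq2), against 1.40% of all genes called, and the medians were -0.20 and 0.062. The median of the members lay below that of all genes in each span class under TMM scaling. On the pan-neuronal scale the medians of the members went from 0.23 in the shortest class to -0.22 in the longest. The median over all tested genes on that scale was 0.44, and it was not split by class. The longest was *Kcnip4*, and *Kcnma1*, *Kcnd2*, *Kcnh7* and *Kcnb2* were in the same class.

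**Figure D4:**
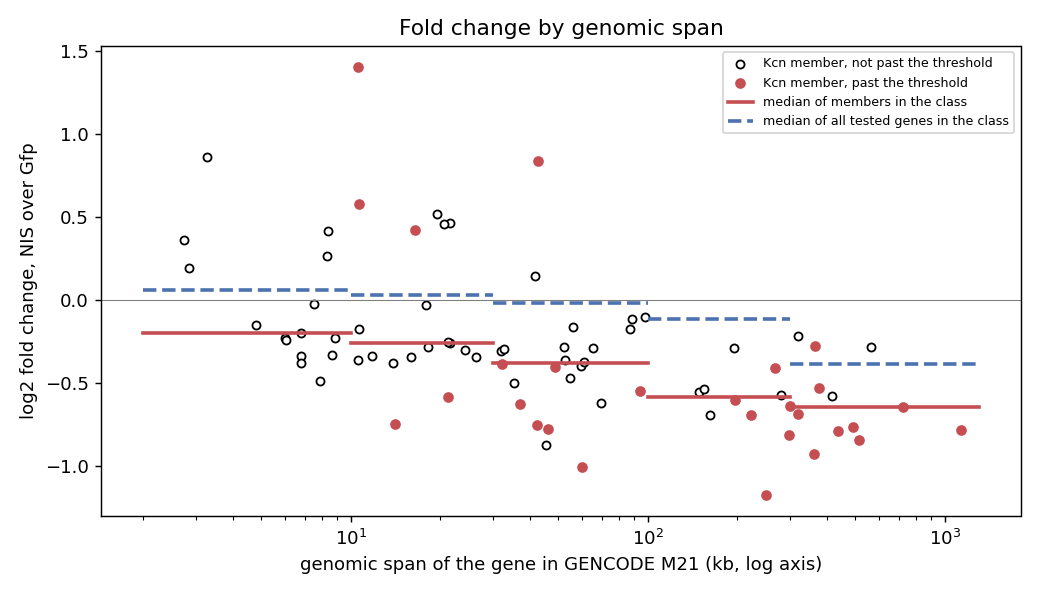
Log2 fold change (y axis, TMM scaling) against genomic span in M21 (x axis, log scale) for the 81 tested members, with called members filled. Solid lines are medians of members and dashed lines medians of all tested genes in 5 span classes. The medians fall from -0.20 to -0.65 for members and from 0.062 to -0.39 for all tested genes. Scaling to pan-neuronal genes puts the members at 0.23 to -0.22 and all tested genes together at 0.44.

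Promoter sequence was available from RefSeq (GRCm38.p6) for 58 of the 81 tested members, with 31 windows for 19 members called lower and 3 windows for 3 called higher. The 250 bases before the start were searched on both strands for fixed motifs. The SP1 box (GGGCGG) was in 41.9% of the windows of members called lower, in 44.4% of the 81 windows of tested members and in 32.7% of all promoters. In the same order, the shares were 16.1%, 14.8% and 17.8% for the CRE core (TGACG), 3.23%, 3.70% and 12.4% for the TATA box (TATAAA), 3.23%, 3.70% and 6.75% for the AP-1 site (TGANTCA), and 3.23%, 11.1% and 10.6% for the PU.1-type site (GAGGAAG). The ETS core (CCGGAAG) was in 0 of the 31 windows of members called lower, in 2.47% of those of tested members and in 6.91% of all promoters. The following windows are from a member called lower and from one called higher, with matches in capitals.
Kcnc1, chr7:46396218-46396467, plus strand: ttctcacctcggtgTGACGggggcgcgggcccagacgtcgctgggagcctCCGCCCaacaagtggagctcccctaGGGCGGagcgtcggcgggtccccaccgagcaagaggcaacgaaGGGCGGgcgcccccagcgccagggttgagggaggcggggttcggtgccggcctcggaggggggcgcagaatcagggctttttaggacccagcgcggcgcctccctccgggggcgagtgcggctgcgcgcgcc
Kcnj2, chr11:111065914-111066163, plus strand: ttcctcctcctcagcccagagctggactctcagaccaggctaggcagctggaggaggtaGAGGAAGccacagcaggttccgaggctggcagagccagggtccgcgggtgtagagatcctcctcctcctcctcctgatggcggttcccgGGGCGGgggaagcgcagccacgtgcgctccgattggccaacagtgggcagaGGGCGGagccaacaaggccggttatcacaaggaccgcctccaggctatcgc

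Both windows hold the SP1 box, and the CRE core is in the *Kcnc1* window and the PU.1-type site in the *Kcnj2* window. With 3 windows for the members called higher, no share was read for them. A match is a string of letters, and no binding was measured.

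The 11 members that did not pass the filter were *Kcna3*, *Kcna7*, *Kcna10*, *Kcne1*, *Kcne2*, *Kcne3*, *Kcnj1*, *Kcnj5*, *Kcnk15*, *Kcnk16* and *Kcnv2*. The highest count in any library among them was 23, and 2 of the 11 had at most 3 counts in every library, so that a difference was not detectable at this depth. Among all 92 members, 22 were above 10 CPM per kb with *Gfp* and 31 were below 1 CPM per kb. Of the 22 most abundant, 9 were called lower (40.9%), against 29.6% of the 81 tested members. The share among all genes of a like level is not given here.

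Exons of other M21 genes overlapped 12 of the 28 called members, all on the opposite strand. With the exception of *Kcnk3*, the overlapping gene had at most 10% of the member's counts wherever it was in the table.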

How the data were processed

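RNA was sequenced from 6 DRG samples, 3 *Gfp* and 3 *NIS*, grouped by the treatment label. The authors extracted 1 ug of total RNA per library, used a stranded total RNA kit, and deposited raw read counts per gene, not normalized, as whole numbers. GRCm38 and mm10 are the builds in the submitters' processing notes; the aligner, counter, annotation and use of strand are not given in the sources used here. GENCODE M21 gave genomic spans, exon lengths and coding transcripts.

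Counts were fitted in R 4.3.3 with edgeR 4.0.16 over the whole table (filterByExpr by group, TMM, glmQLFit, glmQLFTest, no covariate), and called at a Benjamini-Hochberg adjusted p under 0.05. The SE is the absolute coefficient over the square root of F. A test for these data is not given in the sources used here. No pair of libraries within a group differed by as little as counting noise (chi-square per degree of freedom 8.27 to 48.9). Depth limits the precision of members with few counts.

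Pan-neuronal size factors were the median ratio over 16 genes. Other alternatives were RLE, upper quartile and total counts, other filters, DESeq2 1.42.0, limma-voom (limma 3.58.1), robust empirical Bayes, a replicate block and leaving out each library. Scaling to nociceptor and to large-diameter neuron genes was added after seeing the data. Filter codons were found by translating the longest coding transcript and searching for threonine or serine, then valine, isoleucine, threonine or leucine, then glycine, then tyrosine, phenylalanine or leucine, then glycine.

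The members and the gene lists were chosen with earlier results of these data known. Named genes were every called member, the most abundant member per kb and that with the smallest p in each role, the 3 lists of members, and the called partner and transporter genes; *Kcnd1*, *Kcnip2*, *Kcnip3*, *Kcnab2*, *Kcnj9*, the called neuronal and injury markers and members just outside the threshold were added after their values were seen. Some genes that this rule names are not reported here, although the counts and medians include them.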

Additional observations from a re-analysis of the deposited data

How the results depend on the processing

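Against 24 members lower and 4 higher, RLE, upper quartile, total counts, both other filters, limma-voom and robust empirical Bayes gave 21 to 28 lower and 3 or 4 higher. Over all genes, the main fit gave 980 lower and 1872 higher, and these gave 774 to 1094 and 1421 to 2277. DESeq2 gave 37 members lower and 4 higher, and over all genes 1606 and 2405. Pan-neuronal size factors gave 1 member lower, nociceptor size factors 3 and large-diameter neuron size factors 9, against 17, 44 and 144 of all genes. In the same order, 4, 4 and 5 members were higher, against 2234, 2074 and 5856 of all genes. The median log2 fold change of the members, -0.35, turned to 0.065, 0.026 and 0.030. The cause was not tested. Over all genes the median on these scales was 0.44, 0.39 and 0.40. On these 3 scales, in that order, *Kcna6* turned to 0.054, 0.0087 and 0.0071 and *Kcnt2* to 0.16, 0.11 and 0.11; on the pan-neuronal scale *Kcnab1* turned to 0.020 and *Kcnj12* to 0.021. The other 24 called members kept their direction in all 18 alternatives. Leaving out 1 library gave 0 to 34 members lower and 0 to 4 higher (0 to 1446 and 12 to 2474 over all genes), with medians of the members of -0.43 to -0.25. Same-numbered libraries correlated at 0.038, 0.065 and 0.139, and differently numbered ones at -0.138 to 0.072. All these values were low, and the numbers were not taken to pair the samples. With so few libraries the correlations cannot decide whether the samples were paired. With the replicate block 36 members were lower and 4 higher, against 1341 and 2118 of all genes.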
